A study of Mus musculus with 15 samples.

Results

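The 37 genes described here mark granulocytes and macrophages, cells of the spleen other than the leukemic B-cells that this RNA-Seq study set out to measure. They were taken by gene symbol, as marker genes of these cell types, and all 37 were listed in both deposited tables, among 16470 genes in DMSO, 16428 genes with ibrutinib and 15869 genes in both. They comprised 14 granulocyte genes, 15 macrophage genes and 8 genes used by both lineages, and these 3 lists were read apart. The cells came from mice of C57Bl/6 background with tumor-burdened spleens. In Eμ-TCL1 mice a TCL1 transgene is driven by an immunoglobulin enhancer active in lymphocytes of the B lineage. Mice that are Eμ-TCL1;p53R172H/+ carry this transgene together with 1 mutant Trp53 allele. Spleens of both genotypes were broken up mechanically and the cells were cultured for 24 h with vehicle (DMSO) or with 5 μM ibrutinib, an inhibitor of the kinase BTK. No cell sort is stated, so cells of other lineages could enter the culture. There were 3 Eμ-TCL1 libraries (replicates 2, 3 and 4) and 5 Eμ-TCL1;p53R172H/+ libraries (replicates 1 to 5) in DMSO, and 3 Eμ-TCL1 libraries (replicates 1, 3 and 4) and 4 Eμ-TCL1;p53R172H/+ libraries (replicates 1, 3, 4 and 5) with ibrutinib. The labels do not say which libraries share a mouse, so the p-values measure only the spread between these libraries.

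Granulocytes are made in the bone marrow and, in mice, also in the spleen. Their granules are filled in order, so that primary granule enzymes are made by early precursors, secondary granule proteins by later ones, and the calcium-binding proteins S100a8 and S100a9 up to the mature neutrophil. Macrophages of the spleen take up dying cells and old red cells and recycle their iron, using heme oxygenase, ferroportin, complement C1q and the receptors Axl and Mertk. In bulk RNA, fewer cells of a type and less RNA per cell cannot be told apart.

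The granulocyte genes fall into groups by granule, and their promoters are shown for the short motifs that they hold. These motifs were chosen after seeing the data, and a link between motifs and levels was not tested. RefSeq promoters of GRCm38.p6 were matched for 26 of the 37 members, and the 250 bases before each start were searched on both strands for 7 motifs, each given below with its counts. AGGAAGT is a purine-rich sequence of the kind bound by PU.1 and other ETS factors. It was found in 4 of 4 primary granule genes and 1 of 5 secondary granule genes, and also in S100a8, against 7.8% of 27025 promoters. Of the 12 matched granulocyte promoters, 6 held it. The first match of each primary granule gene is printed in capitals, with chromosome, bases and strand after the name.
Mpo (chr11:87793550-87793578, plus strand): tggagagagagAGGAAGTtgcctttgtcc
Elane (chr10:79886217-79886245, plus strand): gtgtcccagggAGGAAGTagggctgtggc
Prtn3 (chr10:79879547-79879605, plus strand): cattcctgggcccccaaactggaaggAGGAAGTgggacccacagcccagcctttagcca
Ctsg (chr14:56102748-56102806, minus strand): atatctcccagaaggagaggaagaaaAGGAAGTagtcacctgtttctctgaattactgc

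TTGCNNAA, a form of the palindrome bound by C/EBP factors, was found in 0 of 4 primary granule genes and 4 of 5 secondary granule genes, and also in S100a9, against 9.55% of all promoters. Capitals mark the first match in each of these 5 genes.
Ngp (chr9:110419644-110419703, plus strand): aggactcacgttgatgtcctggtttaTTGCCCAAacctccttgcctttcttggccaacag
Ltf (chr9:111019191-111019250, plus strand): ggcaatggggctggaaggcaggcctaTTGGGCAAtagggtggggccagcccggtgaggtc
Lcn2 (chr2:32387937-32387966, minus strand): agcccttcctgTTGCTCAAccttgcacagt
Mmp8 (chr9:7558384-7558428, plus strand): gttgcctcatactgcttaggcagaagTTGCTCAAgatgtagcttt
S100a9 (chr3:90695924-90695971, minus strand): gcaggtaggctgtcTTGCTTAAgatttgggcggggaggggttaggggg
In Ltf the match lies on the other strand. Among the matched macrophage genes, AGGAAGT was found in 4 of 8 and TTGCNNAA in 1 of 8, and among the genes of both lineages in 1 of 6 and 1 of 6. A match describes the letters only, and no binding was measured. The shorter motif GAGGAA, which in part overlaps the first motif, was found in 9 of 12 granulocyte promoters and in 23.1% of all promoters. It was also in 7 of 8 macrophage promoters and 2 of 6 of both lineages. By granule it was in 4 of 4 primary and 3 of 5 secondary genes. The full palindrome TTGCGCAA, a special case of the second motif, was found in 0 of 12 and in 0.17% of all promoters. The last 3 motifs were also in 0 of 12, although AACCACA was found in Lyz2, 1 of 6 genes of both lineages. Over all promoters AACCACA was found in 4.46%, the motif CATATGG in 1.3% and the motif GGGACTTTC in 0.278%.

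The values are read counts scaled by the authors to library size (CPM) and rounded to 0.1, and the 2 tables were scaled apart. Column sums ran from 855660.6 to 1243999 in DMSO and from 756625.4 to 1359650 with ibrutinib, and sequencing depth is unknown. The libraries differed in the cells they held. The summed level of 12 B-cell markers ran from 3967.4 to 6522.9 in 5 DMSO libraries, but was 661.8 in Eμ-TCL1 replicate 2 and 368.3 and 393.0 in Eμ-TCL1;p53R172H/+ replicates 1 and 2. With ibrutinib it ran from 1475.6 to 3662.4 in 4 libraries and was 545.0 in Eμ-TCL1 replicate 1 and 122.4 and 605.7 in Eμ-TCL1;p53R172H/+ replicates 1 and 3. The T-cell marker sum reached 3060.5 and 3872.4 in replicates 1 and 2 of Eμ-TCL1;p53R172H/+ in DMSO and 1998.8 in its replicate 1 with ibrutinib, called T-cell-rich here, whereas libraries with a B-cell sum of at least 1000 are called B-cell-rich. Erythroid markers reached a sum of 17908.5 in Eμ-TCL1 replicate 2 in DMSO and of 15493.8 in Eμ-TCL1 replicate 1 with ibrutinib, against at most 72.4 and 264.1 in the other libraries of each table. These 2 libraries, which carry different numbers, also held by far the most granulocyte RNA. Across all genes their deviations from their group means had a correlation of 0.891, above that of every same-numbered pair of a DMSO and an ibrutinib library, so whether they came from 1 mouse or from different mice cannot be told. Log2 changes of the members given in full, and medians of the lists, are also given without Eμ-TCL1 replicate 2 in DMSO, and for ibrutinib the medians without Eμ-TCL1 replicate 1.

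The 14 granulocyte genes together summed to 32858.6, 44.2 and 199.4 in Eμ-TCL1 replicates 2, 3 and 4 in DMSO and to 42.6, 54.9, 9.0, 60.4 and 10.5 in Eμ-TCL1;p53R172H/+ replicates 1 to 5. The highest library was 165-fold above the next and 3650-fold above the lowest. The group means were 11030 ± 18900 (SD, n = 3) for Eμ-TCL1 and 35.5 ± 24.4 (SD, n = 5) for Eμ-TCL1;p53R172H/+. With ibrutinib the granulocyte sum was 26690.2, 49.0 and 213.5 in Eμ-TCL1 replicates 1, 3 and 4 and 29.0, 1480.7, 275.9 and 27.3 in Eμ-TCL1;p53R172H/+ replicates 1, 3, 4 and 5. The genotypes overlapped in both tables, since in each 1 Eμ-TCL1 library was far above all others and the lowest Eμ-TCL1 library lay within the range of the other genotype.

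The 15 macrophage genes, taken as a sum, spread less. They summed to 1488.9, 279.3 and 116.2 in Eμ-TCL1 and to 43.9, 30.9, 296.0, 374.2 and 321.8 in Eμ-TCL1;p53R172H/+ in DMSO, in the same order of replicates. The highest library was 3.98-fold above the next, and the lowest values were those of the T-cell-rich replicates 1 and 2. With ibrutinib the macrophage sum was 1124.5, 495.9 and 199.5 in Eμ-TCL1 and 27.7, 365.1, 731.7 and 372.5 in Eμ-TCL1;p53R172H/+, and the highest library was 1.54-fold above the next. The ratio of the granulocyte to the macrophage sum was 22.1 and 23.7 in the 2 Eμ-TCL1 libraries that stood apart, 4.06 in Eμ-TCL1;p53R172H/+ replicate 3 with ibrutinib, and between 0.0304 and 1.78 in the other 12. A few genes carried much of the macrophage sum. In DMSO Axl was 191.2 of 279.3 in Eμ-TCL1 replicate 3, and Hmox1 was 186.7 of 374.2 in Eμ-TCL1;p53R172H/+ replicate 4. The fold differences and ratios of this sum therefore follow such genes more than the rest of the list.

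**Figure D1:**
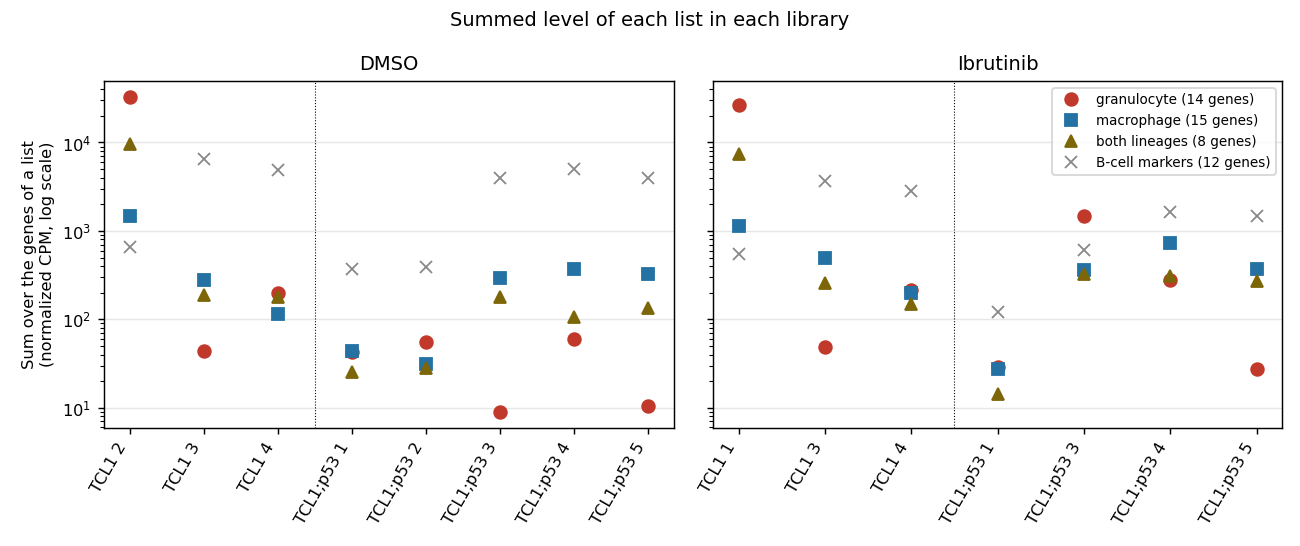
Each point is the sum of the normalized CPM of a list of genes in 1 library, on a log axis, with DMSO on the left and ibrutinib on the right, and the dotted line parts Eμ-TCL1 (TCL1) from Eμ-TCL1;p53R172H/+ (TCL1;p53), with the replicate number after each name. Granulocyte genes (circles) reach 32858.6 and 26690.2 in 1 library of each table, where the B-cell sum (crosses) is 661.8 and 545.0.

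S100a9 and S100a8 form the heterodimer calprotectin of the neutrophil cytosol and are adjacent on chromosome 3 (GRCm38, S100a8 from 90668978 to 90670035 and S100a9 from 90692632 to 90695721). S100a9 in DMSO was 10064.3, 14.2 and 66.4 in Eμ-TCL1 replicates 2, 3 and 4 and 12, 16.9, 2.1, 17.2 and 3.2 in Eμ-TCL1;p53R172H/+ replicates 1 to 5. With ibrutinib it was 6324.2, 15.5 and 69.2 in Eμ-TCL1 replicates 1, 3 and 4 and 8.8, 468.6, 83.4 and 8.9 in Eμ-TCL1;p53R172H/+ replicates 1, 3, 4 and 5. The ranges of the genotypes overlapped in both tables. In DMSO the log2 change of S100a9, Eμ-TCL1;p53R172H/+ relative to Eμ-TCL1, was -4.62 (standard error 1.85, adjusted p = 0.592), the largest of the granulocyte genes, and -1.85 without Eμ-TCL1 replicate 2. With ibrutinib it was -2.13 (standard error 2.22, adjusted p = 0.68), and 0.38 without Eμ-TCL1 replicate 1.

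S100a8 was 8994.9, 12.2 and 54.0 in Eμ-TCL1 and 10.5, 17.0, 1.8, 13.6 and 2.3 in Eμ-TCL1;p53R172H/+ in DMSO. It was 6325.1, 11.7 and 64.0 in Eμ-TCL1 and 8.0, 419.1, 75.9 and 8.6 in Eμ-TCL1;p53R172H/+ with ibrutinib. The pair moved as 1 unit. The ratio of S100a9 to S100a8, both in CPM, lay between 0.994 and 1.39 in all 15 libraries while S100a9 itself ran from 2.1 to 10064.3. The log2 change of S100a8 was -4.59 (standard error 1.87, adjusted p = 0.593) in DMSO, where it was -1.80 without Eμ-TCL1 replicate 2, and -2.09 (standard error 2.27, adjusted p = 0.692) with ibrutinib, where it was 0.51 without Eμ-TCL1 replicate 1.

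Among the secondary granule genes, Ltf encodes the iron-binding protein lactoferrin, and Ngp and Camp encode cathelicidin-family proteins. Ltf was 4479.6, 5.4 and 26.2 in Eμ-TCL1 and 6.6, 5.4, 0.8, 10.1 and 0.9 in Eμ-TCL1;p53R172H/+ in DMSO. With ibrutinib Ltf was 4572.1, 5.4 and 27.2 in Eμ-TCL1 and 4.1, 150.9, 33.8 and 2.1 in Eμ-TCL1;p53R172H/+. As with the S100 pair, 1 Eμ-TCL1 library of each table and replicate 3 of Eμ-TCL1;p53R172H/+ with ibrutinib were high, and the other libraries of the genotypes overlapped. The log2 change was -4.35 (standard error 1.87, adjusted p = 0.608) in DMSO and -2.46 (standard error 2.36, adjusted p = 0.651) with ibrutinib. For Ltf it became -1.55 and 0.34 once the library that stood apart was left out of each table.

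Ngp was 3875.4, 4.0 and 18.8 in Eμ-TCL1 and 4.4, 6.1, 0.8, 7.3 and 0.8 in Eμ-TCL1;p53R172H/+ in DMSO, and 3995.1, 6.0 and 21.1 and then 3.1, 185.3, 34.2 and 2.0 with ibrutinib. Camp was 1352.7, 1.3 and 5.9 and then 1.8, 1.3, 0.1, 1.9 and 0.1 in DMSO, and 1229.2, 1.6 and 5.7 and then 0.7, 36.6, 7.6 and 0.7 with ibrutinib. Neither gene separated the genotypes. Their log2 changes were -4.18 (adjusted p = 0.623) and -3.90 (adjusted p = 0.623) in DMSO, and -2.34 (adjusted p = 0.673) and -2.33 (adjusted p = 0.647) with ibrutinib. Leaving out the library that stood apart made them -1.31 and -1.09 in DMSO and 0.44 and 0.41 with ibrutinib. The other secondary granule genes were Lcn2, which encodes the siderophore-binding protein lipocalin, and Mmp8, the neutrophil collagenase. Lcn2 was 1262.6 and 1348.1 in the 2 libraries that stood apart and at most 90.9 elsewhere, and Mmp8 was 923.7 and 605.5 and at most 63.5.

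Primary granule genes are those of the earliest granules. Mpo, which encodes myeloperoxidase, was 607.0, 0.2 and 1.7 in Eμ-TCL1 and 0.3, 0.5, 0.0, 0.7 and 0.0 in Eμ-TCL1;p53R172H/+ in DMSO. With ibrutinib Mpo was 816.9, 0.7 and 1.3 in Eμ-TCL1 and 0.3, 8.1, 1.6 and 0.2 in Eμ-TCL1;p53R172H/+. Its log2 change was -3.30 (standard error 1.75, adjusted p = 0.645) in DMSO and -2.58 (standard error 2.12, adjusted p = 0.611) with ibrutinib, and -0.50 and 0.32 for Mpo without the library that stood apart in each. The serine proteases Elane, Prtn3 and Ctsg had 150.8, 119.0 and 121.9 in Eμ-TCL1 replicate 2 in DMSO, and each had at most 0.6 in the other 7 DMSO libraries. With ibrutinib they had 218.7, 164.0 and 133.3 in Eμ-TCL1 replicate 1, then 4.0, 5.2 and 3.2 in Eμ-TCL1;p53R172H/+ replicate 3, and never more than 0.7 in the other 5 libraries. At this level the values are a few steps of the rounding, and Ctsg reached 0.5, the level below which the authors filtered genes, only in replicate 2 in DMSO. Of the 14 granulocyte genes, 5 reached it in every DMSO library and 8 in every ibrutinib library.

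Cebpe, a transcription factor needed for secondary granules, was 57.1, 0.2 and 0.6 in Eμ-TCL1 and 0.0, 0.0, 0.0, 0.1 and 0.0 in Eμ-TCL1;p53R172H/+ in DMSO. It was the 1 granulocyte gene of 14 whose values did not overlap between genotypes in DMSO, by 0.1, a single rounding step, and it lay lower in Eμ-TCL1;p53R172H/+. Of all genes, 2.93% lay lower and 3.52% lay higher in Eμ-TCL1;p53R172H/+ without overlap in DMSO. With ibrutinib Cebpe was 69.5, 0.3 and 0.5 in Eμ-TCL1 and 0.0, 1.5, 0.4 and 0.1 in Eμ-TCL1;p53R172H/+, and 0 of the 14 granulocyte genes were without overlap, against 5.97% of all genes lower and 6.68% higher. Its log2 change was -2.24 (adjusted p = 0.636) in DMSO and -1.88 (adjusted p = 0.576) with ibrutinib, and -0.44 and 0.0045 for Cebpe without those 2 libraries. Csf3r, the receptor of the growth factor G-CSF, was 294.2 and 247.6 in the 2 libraries that stood apart and between 0.3 and 11.9 in the others, and the gelatinase gene Mmp9 was 555.4 and 640.9 and between 0.4 and 31.9.

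**Figure D2:**
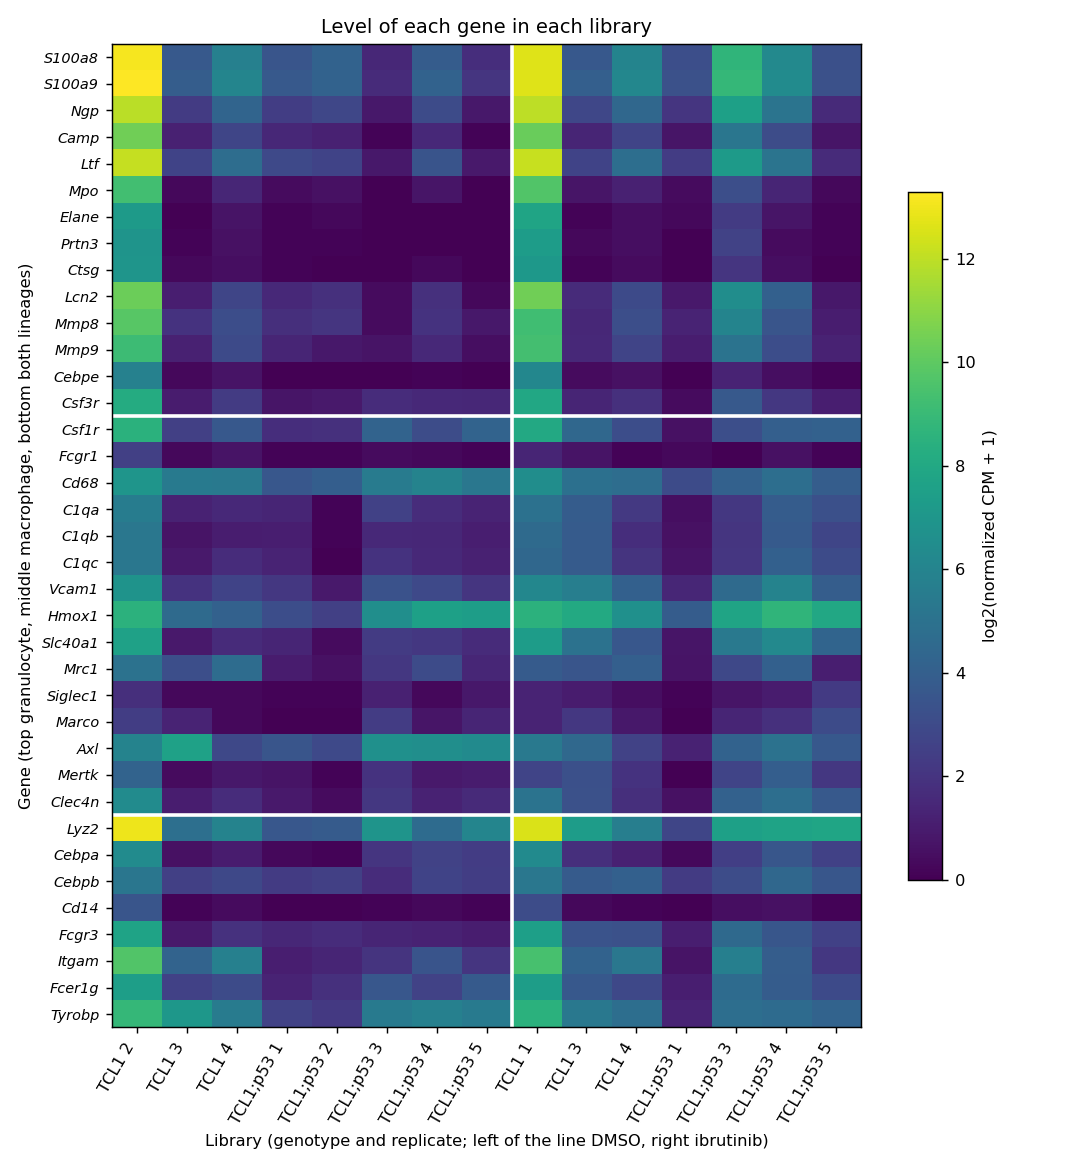
Colour gives log2(normalized CPM + 1) of each of the 37 genes (rows) in each of the 15 libraries (columns), with granulocyte genes at the top, macrophage genes in the middle and genes of both lineages at the bottom. Rows are to be read across libraries and not against each other, since values are not divided by gene length, and Eμ-TCL1 replicate 2 in DMSO and Eμ-TCL1 replicate 1 with ibrutinib are the brightest columns.

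Per kilobase of exon (GENCODE M21 on GRCm38), the order of the granulocyte genes in Eμ-TCL1 replicate 2 in DMSO was led by S100a9 with 19300 and S100a8 with 13000 CPM per kb. Ngp with 3170, Camp with 1780 and Ltf with 1300 CPM per kb followed, and Mpo with 177 and Elane with 153 CPM per kb were lower. In Eμ-TCL1 replicate 1 with ibrutinib the same scale gave 12100 for S100a9, 9110 for S100a8 and 3270 for Ngp, and 239 for Mpo and 222 for Elane. On this scale S100a9, S100a8, Ngp, Camp and Ltf exceeded Mpo and Elane in both libraries. Mmp9, with 157 and 181 CPM per kb, was below Mpo in both. Lyz2, which both lineages use, had 6030 and 4480 CPM per kb, whereas the highest macrophage gene, Hmox1, had 215 and 211.

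As a share of their own level in the library with the highest granulocyte sum, the granulocyte genes were low in every other library of DMSO. That library was chosen by the granulocyte genes themselves, so their low shares elsewhere, also beside macrophage genes, follow in part from the choice. The median over the 14 genes was 0.535% in Eμ-TCL1 replicate 4, where the genes ran from 0.28% (Mpo) to 1.33% (Csf3r). It was between 0.118% and 0.173% in Eμ-TCL1 replicate 3 and Eμ-TCL1;p53R172H/+ replicates 1, 2 and 4, and 0.0189% and 0.018% in replicates 3 and 5. The genes were unequal there, since single genes were at 0% in these 2 libraries while Csf3r was at 0.748% and 0.612%. Macrophage genes had a larger median share in every one of these libraries, between 0.735% and 10.6%, and single genes reached 310% (Axl in Eμ-TCL1 replicate 3). With ibrutinib the medians were between 0.0602% and 3.97% for granulocyte genes and between 2.38% and 73.9% for macrophage genes. All 14 granulocyte genes had their highest value in the library that stood apart in both tables. Of the 15 macrophage genes, 14 did so in DMSO (all but Axl) and 10 with ibrutinib (all but Hmox1, Mrc1, Siglec1, Marco and Mertk).

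The proportion of late to early granule genes was not the same in all libraries. The sum of the secondary granule genes Ngp, Camp, Ltf, Lcn2 and Mmp8 divided by that of the primary granule genes Mpo, Elane, Prtn3 and Ctsg was 11.9 in Eμ-TCL1 replicate 2 in DMSO and 8.82 in Eμ-TCL1 replicate 1 with ibrutinib. In Eμ-TCL1;p53R172H/+ replicate 3 with ibrutinib, where both sums were well above the rounding step (527.2 and 20.5), it was 25.7. The other libraries gave between 15.4 and 34, but there the primary sum was at most 3.2, and it was 0 in Eμ-TCL1;p53R172H/+ replicates 3 and 5 in DMSO, for which no ratio is given. Thus the 2 libraries richest in granulocyte RNA held the largest proportion of early granule genes among the 13 libraries with a ratio. No test was made, because the groups of libraries were defined by their own values.

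**Figure D3:**
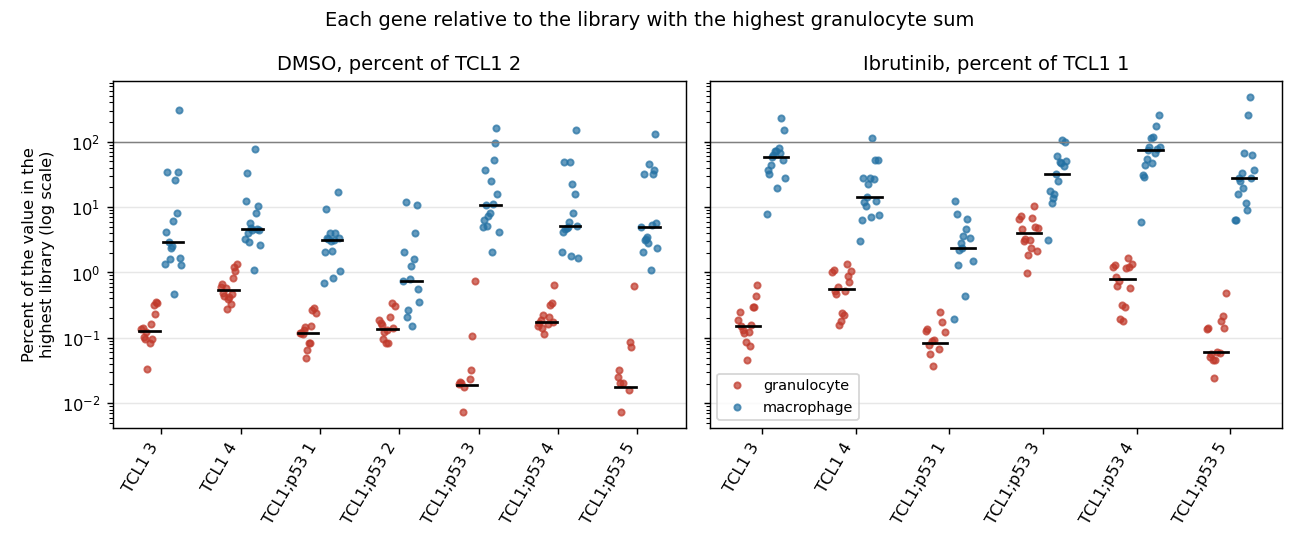
Each dot is 1 gene as a percent of its own value in the library with the highest granulocyte sum of that table. The axis is logarithmic, and 100 is the grey line. Granulocyte genes are red and macrophage genes blue. Black bars are medians over all genes of the list, values of 0 included, although a value of 0 has no dot. Medians of granulocyte genes lie between 0.018% and 0.535% in DMSO and those of macrophage genes between 0.735% and 10.6%.

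Between genotypes, none of the 14 granulocyte genes passed the threshold in DMSO (limma with Benjamini-Hochberg adjustment over all genes), where 2 of 16470 genes did (0.0121%), neither of them a member. Unadjusted p was under 0.05 for 3 of the 14 (S100a9, S100a8 and Ltf), as for 1346 of all genes. The fitted log2 change was negative for all 14, from -4.62 to -2.24 with a median of -3.51, beside a median of 0.04 over all genes. Without Eμ-TCL1 replicate 2 the granulocyte median was -0.94, with 14 of 14 still negative. With ibrutinib 0 of 14 passed, as did 0 of all 16428 genes (0%), and unadjusted p was under 0.05 for 0 of 14 and for 1973 of all genes. There the median was -1.92 beside -0.05 over all genes, and without Eμ-TCL1 replicate 1 it was 0.41, with 14 of 14 positive. For libraries with a B-cell sum of at least 1000, chosen after seeing the data, the granulocyte median was -1.16 in DMSO and -0.10 with ibrutinib. Of the 14 genes, 14 and 10 were negative in these fits.

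Of the macrophage genes, those with a role in iron and heme come first. Hmox1 encodes heme oxygenase 1, which breaks down heme. It was 375.7, 22.8 and 16.7 in Eμ-TCL1 and 7.9, 4.7, 93.5, 186.7 and 168.7 in Eμ-TCL1;p53R172H/+ in DMSO. With ibrutinib Hmox1 was 369.0, 270.1 and 102.6 in Eμ-TCL1 and 13.4, 219.6, 419.3 and 248.4 in Eμ-TCL1;p53R172H/+. Leaving aside Eμ-TCL1 replicate 2, the 3 B-cell-rich Eμ-TCL1;p53R172H/+ libraries of DMSO (replicates 3, 4 and 5) were above the 2 B-cell-rich Eμ-TCL1 libraries, and the T-cell-rich replicates 1 and 2 were below all. The log2 change over all libraries was -0.32 (standard error 1.5, adjusted p = 0.951) in DMSO and -0.69 (standard error 1.14, adjusted p = 0.803) with ibrutinib, and 1.08 in DMSO without Eμ-TCL1 replicate 2. Over the 5 DMSO libraries with a B-cell sum of at least 1000 it was 2.82 with an adjusted p of 0.0879, a choice of libraries made after seeing the data, and over all alternatives the adjusted p ran from 0.0879 to 0.977.

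Slc40a1, which encodes the iron exporter ferroportin, was 194.8, 0.9 and 2.1 in Eμ-TCL1 and 1.6, 0.3, 4.0, 3.5 and 2.1 in Eμ-TCL1;p53R172H/+ in DMSO. With ibrutinib it was 161.4, 31.1 and 11.3 in Eμ-TCL1 and 0.7, 40.5, 76.1 and 18.4 in Eμ-TCL1;p53R172H/+. The genotypes overlapped in both tables. Its log2 change was -1.81 (standard error 1.38, adjusted p = 0.661) in DMSO and -1.15 (standard error 1.40, adjusted p = 0.727) with ibrutinib, and without Eμ-TCL1 replicate 2 the DMSO value was 0.30.

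Csf1r, the receptor for the macrophage growth factor M-CSF, was 353.7, 4.7 and 11.6 in Eμ-TCL1 and 2.4, 2.6, 17.6, 7.4 and 17.7 in Eμ-TCL1;p53R172H/+ in DMSO. With ibrutinib it was 258.8, 20.4 and 7.8 and then 0.5, 8.0, 15.4 and 16.4. Apart from 1 high library per table, no Eμ-TCL1 library exceeded 20.4. The log2 change was -1.85 (standard error 1.29, adjusted p = 0.652) in DMSO and -2.22 (standard error 1.3, adjusted p = 0.528) with ibrutinib, and for Csf1r -0.06 and -0.80 without the library that stood apart. Fcgr1, the high-affinity receptor for IgG, was 4.8, 0.2 and 0.6 and then 0.1, 0.1, 0.3, 0.2 and 0.1 in DMSO, and 1.6, 0.6 and 0.1 and then 0.2, 0.0, 0.5 and 0.1 with ibrutinib, so most libraries were within a few rounding steps of 0. Its log2 change was -0.95 (adjusted p = 0.633) and -0.48 (adjusted p = 0.549), and -0.26 and -0.16 for Fcgr1 without those libraries.

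Axl, a receptor tyrosine kinase for the uptake of dying cells, was the 1 macrophage gene that was not highest in Eμ-TCL1 replicate 2 in DMSO. It was 61.7, 191.2 and 6.4 in Eμ-TCL1 and 10.4, 6.6, 101.5, 93.6 and 80.6 in Eμ-TCL1;p53R172H/+ in DMSO. With ibrutinib Axl was 41.0, 21.4 and 5.1 and then 1.4, 17.2, 31.4 and 11.5. In Eμ-TCL1 replicate 3 in DMSO, which had the highest Axl of all libraries, Mertk, the related receptor, was 0.3 and C1qa was 1.4. The log2 change of Axl was -0.28 (standard error 1.26, adjusted p = 0.949) in DMSO and -0.63 (standard error 0.98, adjusted p = 0.788) with ibrutinib, and -0.03 in DMSO without Eμ-TCL1 replicate 2. Cd68, a lysosomal glycoprotein, was 121.2, 42.3 and 40.0 and then 11.2, 14.5, 44.8, 59.9 and 38.3 in DMSO, and 92.1, 29.3 and 25.9 and then 7.1, 16.2, 27.0 and 14.4 with ibrutinib. Cd68 was highest in the library that stood apart in both tables, and its lowest DMSO values were those of the T-cell-rich replicates 1 and 2. The log2 change of Cd68 was -1.05 (adjusted p = 0.645) in DMSO and -1.44 (adjusted p = 0.377, unadjusted p = 0.0338) with ibrutinib, and -0.54 and -0.87 without the libraries that stood apart.

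Mrc1, the mannose receptor, was 31.7, 8.3 and 24.7 in Eμ-TCL1 and 1.0, 0.5, 3.5, 7.1 and 1.7 in Eμ-TCL1;p53R172H/+ in DMSO. These values did not overlap, the only such case among the 15 macrophage genes, beside 2.93% of all genes lower and 3.52% higher without overlap. The Mrc1 means were 21.6 ± 12 (SD, n = 3) and 2.76 ± 2.68 (SD, n = 5). The log2 change was -2.67 (standard error 0.64, unadjusted p = 0.00271), which did not pass over all genes (adjusted p = 0.349), and it lay between -3.22 and -2.31 when single libraries were left out. With ibrutinib Mrc1 was 13.2, 10.4 and 15.1 in Eμ-TCL1 and 0.6, 6.4, 15.6 and 1.2 in Eμ-TCL1;p53R172H/+, which overlapped (log2 change -1.59, standard error 0.79, adjusted p = 0.466). Unlike the granulocyte genes, Mrc1 in Eμ-TCL1 replicate 4 in DMSO reached 77.9% of its level in replicate 2.

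The 3 chains of complement C1q, which tags dying cells, are encoded side by side on chromosome 4 (GRCm38, from 136880129 for C1qb to 136898803 for C1qa). C1qa was 47.1, C1qb 37.4 and C1qc 37.9 in Eμ-TCL1 replicate 2 in DMSO, and each was at most 5.0 in the other DMSO libraries. With ibrutinib they were 30.6, 22.9 and 21.1 in Eμ-TCL1 replicate 1, 13.5, 13.3 and 13 in Eμ-TCL1 replicate 3, and 13.7, 12.4 and 15.6 in Eμ-TCL1;p53R172H/+ replicate 4. Vcam1, an adhesion molecule of splenic macrophages, was 114.1 and 71.4 in the libraries that stood apart, and ran to 9.3 elsewhere in DMSO and to 59.7 elsewhere with ibrutinib. Clec4n, a C-type lectin, was 84.2 and 32.8 there, and ran to 3.5 and 26.9 elsewhere. Siglec1 and Marco, which mark macrophages of the marginal zone, did not exceed 3.8 and 7.3 in any library, and Mertk did not exceed 17.7.

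Of the 15 macrophage genes 0 passed in DMSO and 0 with ibrutinib, and unadjusted p was under 0.05 for 1 in each table (Mrc1 and Cd68). The log2 change was negative for 15 of 15 in DMSO, with a median of -1.25, and for 13 of 15 with ibrutinib, with a median of -0.96, the exceptions being Marco with 0.13 and Siglec1 with 0.11. Without Eμ-TCL1 replicate 2 the DMSO median was -0.03, and without Eμ-TCL1 replicate 1 the ibrutinib median was -0.39. Over libraries with a B-cell sum of at least 1000, the median was 0.51 in DMSO and 0.52 with ibrutinib. The direction of the macrophage list thus rested on which libraries were used.

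Genes used by both lineages were led by Lyz2, which encodes lysozyme. Lyz2 was 7931.4, 28.2 and 60.2 in Eμ-TCL1 and 11.4, 13.3, 116.1, 24.4 and 66.3 in Eμ-TCL1;p53R172H/+ in DMSO. With ibrutinib it was 5895.8, 163.7 and 50.0 and then 5.8, 188.1, 211.5 and 224.1. The genotypes overlapped. Its log2 change was -2.90 (standard error 1.72, adjusted p = 0.645) in DMSO and -2.05 (standard error 1.87, adjusted p = 0.641) with ibrutinib, and for Lyz2 -0.39 and -0.05 without the library that stood apart. Lyz2 has a near-identical neighbour, Lyz1, and how reads matching both genes were counted is not given in the sources used here.

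Itgam encodes CD11b, an integrin of granulocytes, macrophages and some B-cells. It was 821.4, 18.1 and 54.0 in Eμ-TCL1 and 1.2, 1.6, 3.0, 10.1 and 3.1 in Eμ-TCL1;p53R172H/+ in DMSO, again without overlap, as for no other gene of the 8, beside the same 2.93% of all genes lower and 3.52% higher. The log2 change was -4.57 (standard error 1.11, unadjusted p = 0.00302, adjusted p = 0.358), and -3.01 without Eμ-TCL1 replicate 2. With ibrutinib Itgam was 690.2, 16.9 and 38.3 in Eμ-TCL1 and 0.6, 53.2, 13.9 and 3.4 in Eμ-TCL1;p53R172H/+, where replicate 3 lay among the Eμ-TCL1 values, and the log2 change was -3.18 (standard error 1.55, adjusted p = 0.462). In Eμ-TCL1 replicate 3 in DMSO, Itgam stood at 18.1 while all 14 granulocyte genes together summed to 44.2. In GENCODE M21 an annotated transcript on the same strand overlaps Itgam.

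Tyrobp and Fcer1g encode signaling adaptors of activating receptors, and Fcgr3 encodes a low-affinity receptor for IgG. Tyrobp was 465.8, 131.2 and 45.3 in Eμ-TCL1 and 5.2, 3.7, 43.5, 55.2 and 42.8 in Eμ-TCL1;p53R172H/+ in DMSO, and 364.2, 39.3 and 26.6 and then 1.5, 27.3, 24.0 and 17.6 with ibrutinib. Its log2 change was -2.83 (standard error 1.07, unadjusted p = 0.0277, adjusted p = 0.567) in DMSO and -2.46 (standard error 1.14, adjusted p = 0.445) with ibrutinib, and for Tyrobp -1.97 and -1.31 without the library that stood apart. As with Cd68, Tyrobp was low in the T-cell-rich replicates 1 and 2 and was at least 42.8 in the B-cell-rich libraries of DMSO. Fcgr3 was 205.3, 0.9 and 2.7 and then 1.8, 2.2, 1.6, 1.4 and 1.1 in DMSO, and 179.1, 9.4 and 8.9 and then 1.2, 22.4, 10.8 and 5.0 with ibrutinib. Fcer1g was 174.8, 4.9 and 7.2 and then 1.5, 2.6, 11.2, 5.1 and 12.5 in DMSO, and 170.6, 11.8 and 6.5 and then 1.2, 23.9, 13.4 and 6.9 with ibrutinib. Both genes overlapped between genotypes, with adjusted p of 0.645 for both in DMSO and 0.566 and 0.609 with ibrutinib. Without Eμ-TCL1 replicate 2 the DMSO log2 change was -0.03 for Fcgr3 and -0.17 for Fcer1g. The transcription factor genes Cebpa and Cebpb reached 85.3 and 37.1, and Cd14, a co-receptor for bacterial lipopolysaccharide, 10.4. Of these 8 genes 0 passed in either table, and the medians of their log2 changes were -1.92 in DMSO and -1.64 with ibrutinib, but -0.27 and -0.26 when the library that stood apart was left out of each table.

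The genotype change did not differ detectably between treatments. In the interaction of genotype and treatment, 0 of 15869 genes (0%) and 0 of the 37 members passed, and unadjusted p was under 0.05 for 83 of all genes and for 0 members. The interaction, the log2 change with ibrutinib minus that in DMSO, was positive for 14 of 14 granulocyte genes with a median of 1.56, for 11 of 15 macrophage genes with a median of 0.37 and for 8 of 8 genes of both lineages with a median of 0.36, beside -0.07 over all genes. These directions depended on single libraries. Without Eμ-TCL1 replicate 2 in DMSO the interaction was positive for 0 of 14 granulocyte genes (median -1.18), 3 of 15 macrophage genes (median -0.86) and 0 of 8 genes of both lineages (median -1.03), whereas without Eμ-TCL1 replicate 1 with ibrutinib the granulocyte median was 4.07. Without Eμ-TCL1 replicate 3 with ibrutinib, 5 of 14 granulocyte genes (median -0.09) and 2 of 8 of both lineages (-0.10) were positive. For macrophage genes this fit gave 11 of 15 (median 0.40). Without Eμ-TCL1 replicate 4 with ibrutinib, 8 of 14 granulocyte genes (median 0.59) and 6 of 15 macrophage genes (-0.24) were positive. Of the genes of both lineages, 2 of 8 were positive in that fit (median -0.35). The interaction took all libraries as independent. Its standard errors were large, 3.12 for S100a9 with an interaction of 2.48, and 2.08 for Hmox1 with -0.37.

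Other genes of these cells were taken from a wider list. Of 21 further granulocyte genes measured, 0 passed in DMSO and 0 with ibrutinib, and 20 of 21 had a negative log2 change in each table, with medians of -2.26 and -1.47. The size of this in DMSO, and its direction with ibrutinib, depended on 1 library per table. The median was -0.28 in DMSO without Eμ-TCL1 replicate 2, where 17 of 21 were still negative and 3 positive. With ibrutinib 16 of 21 were positive, with a median of 0.31, once Eμ-TCL1 replicate 1 was left out. The lowest unadjusted p in DMSO was that of Ms4a3, a gene of granulocyte precursors (log2 change -2.62, adjusted p = 0.58), and of Padi4, which encodes a peptidyl arginine deiminase of neutrophils (-3.09, adjusted p = 0.608). With ibrutinib they were Ms4a3 (-2.56, adjusted p = 0.426) and Lrg1 (-1.93, adjusted p = 0.551). In DMSO 1 of the 21, Cxcr2, lay lower in Eμ-TCL1;p53R172H/+ without overlap (at most 0.4 against at least 0.5), and with ibrutinib all 21 overlapped. Of 28 further macrophage genes, 0 passed in either table. Their median log2 change was -0.93 in DMSO (26 negative) and -0.90 with ibrutinib (21 negative). Without the library that stood apart in each table it was -0.04 and -0.12. Over libraries with a B-cell sum of at least 1000 it was 0.02 and 0.28. Their DMSO sum was 4758.7 in Eμ-TCL1 replicate 2 and ran from 1225.8 to 2462.1 in the other 7 libraries. Adgre1, which encodes the macrophage antigen F4/80, was 213.5, 26.7 and 104.8 in Eμ-TCL1 and 2.5, 2.1, 8.3, 15.6 and 8.9 in Eμ-TCL1;p53R172H/+ in DMSO. These values did not overlap, as for 1 of the 28 in DMSO, beside 2.93% of all genes lower and 3.52% higher without overlap. The log2 change of -3.62 (standard error 0.77, unadjusted p = 0.00133) did not pass (adjusted p = 0.285). With ibrutinib Adgre1 was 113.4, 6.2 and 32.0 and then 0.6, 4.1, 9.0 and 2.5 (log2 change -2.87, adjusted p = 0.343). Spi1, which encodes the transcription factor PU.1 of myeloid cells and B-cells, had a log2 change of -2.20 (adjusted p = 0.608) in DMSO, and Ms4a7, which encodes a membrane protein, had -1.51 (adjusted p = 0.266) with ibrutinib. Both genes, 2 of the 28, lay lower in Eμ-TCL1;p53R172H/+ without overlap with ibrutinib, beside 5.97% of all genes lower and 6.68% higher.

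Levels in DMSO and with ibrutinib were set side by side without a test, because the tables were scaled apart. There were 6 pairs of the same genotype and number, Eμ-TCL1 replicates 3 and 4 and Eμ-TCL1;p53R172H/+ replicates 1, 3, 4 and 5, and neither library that stood apart was among them. Of the members, Hmox1 alone was higher with ibrutinib in 6 of 6, from 22.8 to 270.1 and from 16.7 to 102.6 for Eμ-TCL1 and, for Eμ-TCL1;p53R172H/+, from 7.9 to 13.4, 93.5 to 219.6, 186.7 to 419.3 and 168.7 to 248.4. Of all 15869 genes, 2.46% were higher in all pairs, and 4.41% were when each column was rescaled to 1 common sum, which kept Hmox1 higher in 6 of 6 and added Cebpb. Slc40a1 was higher in 5 of 6 pairs, from 0.9 to 31.1 and from 2.1 to 11.3 in Eμ-TCL1 and from 4.0 to 40.5, 3.5 to 76.1 and 2.1 to 18.4 in replicates 3, 4 and 5 of Eμ-TCL1;p53R172H/+, whereas replicate 1 went from 1.6 to 0.7. Vcam1, Mertk, C1qb, C1qc and Clec4n were also higher in 5 of 6, so that 7 of 15 macrophage genes, 4 of 14 granulocyte genes and 3 of 8 genes of both lineages were higher in at least 5 pairs, beside 11.7% of all genes. The pair that went the other way for these macrophage genes was replicate 1 of Eμ-TCL1;p53R172H/+, which was T-cell-rich in both tables.

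Axl, Cd68 and Tyrobp were lower with ibrutinib in 6 of 6 pairs, which 37.9% of all genes were, and 31% after that rescaling. Axl went from 191.2 to 21.4 in Eμ-TCL1 replicate 3 and from 101.5 to 17.2 in Eμ-TCL1;p53R172H/+ replicate 3. The B-cell sum was also lower with ibrutinib in all 6 pairs, for example from 6522.9 to 3662.4 in Eμ-TCL1 replicate 3, and its part in these differences was not tested. In replicate 3 of Eμ-TCL1;p53R172H/+ the granulocyte sum was 9.0 in DMSO and 1480.7 with ibrutinib, while the B-cell sum was 3989.6 and 605.7 and the T-cell sum 295.1 and 1280.7. Across all genes the deviations of these 2 libraries from their group means had a correlation of -0.104, whereas the other 5 same-numbered pairs gave between 0.715 and 0.837, so 5 of 6 pairs deviated together but not all, and the numbers were not taken to pair libraries.

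**Figure D4:**
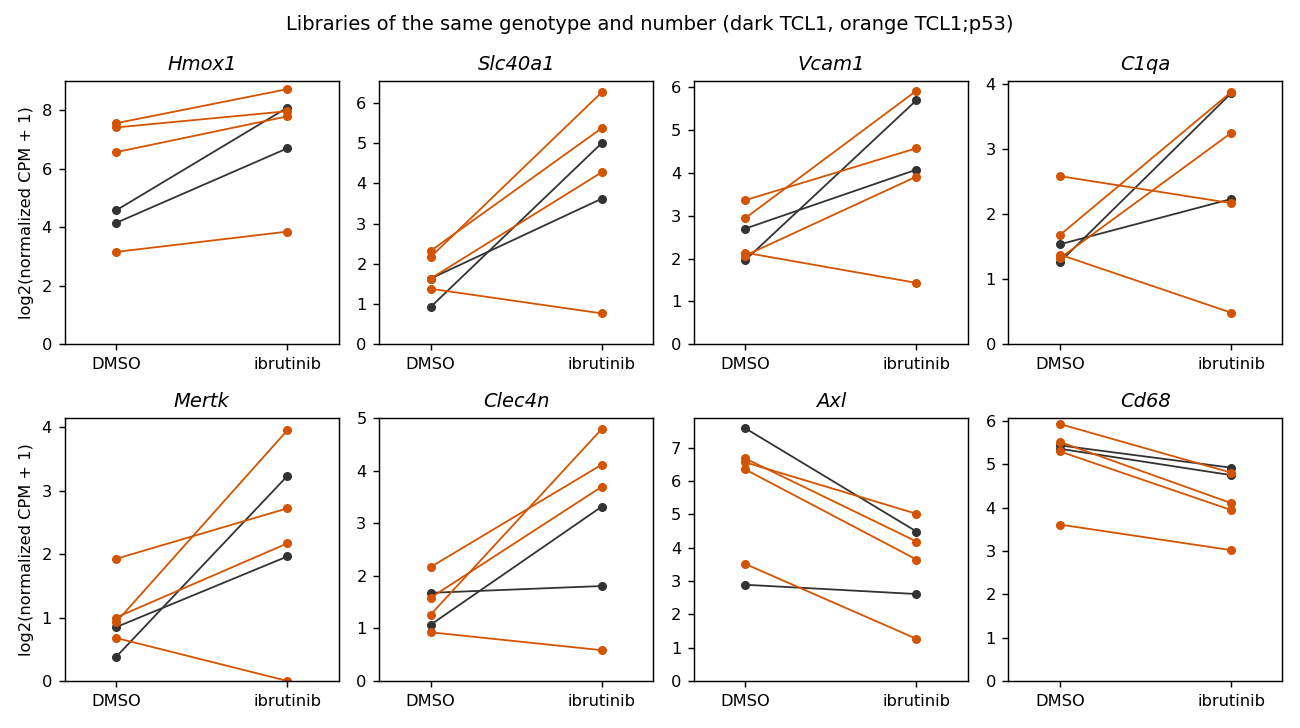
Each line joins the DMSO and the ibrutinib library of the same genotype and number for 1 gene, as log2(normalized CPM + 1), with Eμ-TCL1 dark and Eμ-TCL1;p53R172H/+ orange, and each panel has its own vertical scale from 0. Hmox1 is higher with ibrutinib in 6 of 6 pairs and Axl and Cd68 are lower in 6 of 6, but the tables were scaled apart and no test was made.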

How the data were processed

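RNA-Seq values of 15 libraries were used. Per the labels and the study's methods, reads were aligned with TopHat2 (2.0.12) and SAMtools (0.1.19) to GRCm38 (mm10), counted per gene with HTSeq-count on GENCODE M2, filtered below 0.5 CPM and scaled with edgeR. What the authors deposited are signal values, that is normalized CPM, scaled separately in 2 tables and rounded to 0.1. Reads could not be recovered, so no count test was run, and depth is unknown.

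For each table by itself, genotypes were compared in R 4.3.3 by limma 3.58.1 (trend, no covariates) on log2(value + 1), with Benjamini-Hochberg adjustment over all genes and a threshold of 0.05, and the interaction over 15 libraries. There a table's scale factor cancels only for values well above the pseudocount, and the granulocyte interaction median was 2.06 with a pseudocount of 0.1 and 0.93 with 5. This fold change understates changes of low genes. The fit was tested on simulated data. Lists were summed per library. Positions came from GENCODE M21 and promoters from RefSeq. In GENCODE M21, exons of other genes overlapped Mpo, Prtn3, Csf1r, Vcam1, Cebpa, Cebpb and Itgam. Overlaps were not checked in GENCODE M2, on which reads were counted. Where they hold there too, reads could not be told apart, since use of strand is not given in the sources used here. Where a promoter window touched an annotated exon it was shortened.

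The members and lists were chosen with earlier results of these data known, and the motifs after seeing the data. Given in full were the 5 highest members per list, the 2 with the lowest p per list and table, and others by range; values of other genes named beside them were chosen after they were seen. Alternatives tried were a pseudocount of 0.1 or 5, genes with a mean of at least 5, quantile normalization, columns rescaled to a sum of 1000000, sample quality weights, a replicate block and each library left out. Libraries with a B-cell list sum of at least 1000 were added after seeing the data. Python 3.11.15 with matplotlib 3.10.9 drew the figures.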

Additional observations from a re-analysis of the deposited data

Results flagged for a closer look

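Within groups of 4 or 5 libraries, 5 of 44 gene and group combinations held a library farther from the rest than Dixon's limit. The limit gives about 1 in 20 for independent, normally spread values. These values are skewed and genes such as S100a8 and S100a9 move together, so no excess is read from this count. In Eμ-TCL1;p53R172H/+ with ibrutinib, replicate 3 was the highest for S100a9 (468.6, next 83.4) and for S100a8 (419.1, next 75.9). Replicate 1 of the same group was the lowest for Lyz2 (5.8, next 188.1). In Eμ-TCL1;p53R172H/+ in DMSO, replicate 4 was the highest for Itgam (10.1, next 3.1) and for Cebpe (0.1, the others at 0.0, a single rounding step). Groups of 3 were not examined, so the Eμ-TCL1 libraries that stood apart were outside this check.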

How the results depend on the processing

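The number of members past the threshold was 0 in each list and table, and it changed only with sample quality weights in DMSO, to 1 macrophage gene (Mrc1, adjusted p = 0.0289) and 1 gene of both lineages (Itgam, adjusted p = 0.017), with 803 of all genes called. All genes called in DMSO, 2 in the report, numbered 6 with a pseudocount of 5 and 12 over libraries with a B-cell sum of at least 1000, and ran from 0 (without Eμ-TCL1 replicate 3) to 61 (without Eμ-TCL1 replicate 2). With ibrutinib, 0 in the report, they numbered 2 after rescaling each column to 1 common sum and 28 with weights, and ran from 0 to 24 (without Eμ-TCL1 replicate 1). With a replicate block there were 0 in DMSO (970 with an unadjusted p under 0.05), 0 with ibrutinib (1490) and 0 for the interaction (802). Within each table the block joined libraries of the same number across genotypes. For the interaction, the block instead joined DMSO and ibrutinib libraries of the same genotype and number, so libraries without a partner carried no weight. This interaction block turned the median of macrophage genes from 0.37 (11 of 15 positive) to -0.63 (3 of 15 positive). It turned that of both lineages from 0.36 to -0.06. Within tables, same-numbered libraries of the genotypes correlated between -0.166 and 0.246, so the numbers were not used to pair the genotypes in the main fits.

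The medians of the lists depended on the libraries. With weights the macrophage median in DMSO was 0.23 and the granulocyte median with ibrutinib 0.48. Over libraries with a B-cell sum of at least 1000, the macrophage median was 0.51 in DMSO and 0.52 with ibrutinib, and that of both lineages -0.12 and 0.082. With single libraries left out the granulocyte median with ibrutinib ran from -3.49 to 0.41. With weights 11 of 15 macrophage genes and 3 of 8 of both lineages had a positive log2 change in DMSO, and with ibrutinib 13 of 14 granulocyte, 7 of 15 macrophage and 4 of 8 of both lineages did. Among the members given in full, these were, in DMSO, Hmox1 (2.13), Csf1r (0.23), Slc40a1 (0.31), Axl (2.03), Lyz2 (0.046) and Fcer1g (0.20). For ibrutinib they were S100a9 (0.66), S100a8 (0.74), Ltf (0.47), Ngp (0.71), Camp (0.49), Mpo (0.13), Hmox1 (0.40), Slc40a1 (0.59), Axl (0.54), Lyz2 (0.43) and Fcer1g (0.21). Over the B-cell-rich libraries 13 of 15 macrophage genes and 3 of 8 of both lineages were positive in DMSO, and 12 of 15 macrophage, 4 of 14 granulocyte and 5 of 8 of both lineages with ibrutinib. Those given in full were, in DMSO, Hmox1 (2.82), Csf1r (0.75), Slc40a1 (0.76), Axl (1.29), Cd68 (0.18), Lyz2 (0.47) and Fcer1g (0.53), and with ibrutinib Hmox1 (0.95), Csf1r (0.30), Slc40a1 (0.96), Axl (0.78), Lyz2 (1.26) and Fcer1g (0.12). With single libraries left out, the log2 change with ibrutinib ran from -3.91 to 0.38 for S100a9, from -3.97 to 0.51 for S100a8, from -4.40 to 0.34 for Ltf, from -4.14 to 0.44 for Ngp, from -4.04 to 0.41 for Camp, from -2.88 to 0.0045 for Cebpe, from -4.14 to 0.32 for Mpo, from -1.24 to 0.38 for Hmox1 and from -1.41 to 0.12 for Axl. In DMSO it ran from -1.13 to 1.08 for Hmox1, from -3.05 to 0.30 for Slc40a1 and from -1.57 to 0.78 for Axl. Of the other recomputed values for single genes, 539 kept their direction and side of the threshold. The cause of these changes was not tested. Where 1 library is left out of a group of 3, the pair left sets that group's spread, and values under a few rounding steps of 0.1 limit what can be said of Fcgr1, Cebpe, Elane, Prtn3 and Ctsg.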
